A study of Homo sapiens with 12 samples.

Results

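Aminoacyl-tRNA synthetases and the proteins that work with them were followed after knockdown of WTAP in Kasumi-1 cells, an established line from a human acute myeloid leukaemia. The 41 genes were chosen by symbol, from the 27411 genes of the deposited expression table, and the peaks described are those that the deposited lists assign to them. By their names, 22 work in the cytosol and 19 in mitochondria (symbols ending in 2, with GATB, GATC and QRSL1; AIMP2 is cytosolic). The study sequenced RNA before (input) and after pull-down with an antibody against N6-methyladenosine (m6A), a methyl mark on adenosine (IP), in 12 libraries that form 4 groups of 3 libraries the labels call biological replicates. All cells were labelled WT, were stably transfected through a lentiviral vector, and were selected in puromycin at 2 µg/ml for at least 24 h. Control cells carried a scramble shRNA and shWTAP cells an shRNA against WTAP. Whether a clone or a pool of cells was used is not given in the sources used here. WTAP belongs to the methyltransferase complex that places m6A on messenger RNA, so the comparison asks which transcripts and m6A peaks differ when it is reduced.

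Each aminoacyl-tRNA synthetase joins 1 amino acid to its tRNAs, which makes the charged tRNAs that ribosomes read. Human cells run this in the cytosol and again in mitochondria, mostly with separate nuclear genes for each place. In the cytosol several synthetases sit in a multisynthetase complex held together by AIMP1, AIMP2 and EEF1E1. Mitochondria lack a glutaminyl-tRNA synthetase, and the GATB, GATC and QRSL1 subunits form the amidotransferase that converts glutamate already on the tRNA to glutamine. Many cytosolic synthetase genes are known targets of ATF4, the transcription factor that rises when cells run short of amino acids.

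The values are FPKM (fragment values scaled to transcript length and library total) in the 6 input libraries, and their depth is unknown. Between 11216 and 11392 genes reached 1 FPKM in a library. The 13 mitochondrially encoded mRNAs made up 0.634% of summed FPKM in control library 3 and 0.631% in shWTAP library 1, and from 0.30% to 0.333% in the other 4, so these 2 libraries stood apart in both groups. WTAP stood at 11.5 ± 0.234 FPKM (SD, n = 3) in control and 6.38 ± 0.644 in shWTAP, 55.6% of control, without overlap between the groups. Differences were tested with limma on log2(FPKM + 1) across all 11383 genes that reached 1 FPKM in at least 3 libraries, which all 41 synthetase-group genes did. Genes with an adjusted p under 0.05 (Benjamini-Hochberg) were called. By that rule 275 of all tested genes were lower in shWTAP (2.42%) and 168 higher (1.48%). Of 9 markers of the line and of myeloid progenitors, KIT and MPO stood at 732.1 and 1372 FPKM in control and ELANE at 1.52. These markers moved with the groups in part. ANPEP was called higher, at 3.02 ± 0.114 FPKM in control and 4.29 ± 0.376 in shWTAP (adjusted p = 0.0421 by limma). CD34 and MPO were higher in each shWTAP library without passing. ELANE, PRTN3 and AZU1 had lower means in shWTAP, with overlap between the groups (log2 changes -0.14, -0.14 and -0.10). The 9 summed to 2204 to 2262 FPKM in control and 2430 to 2467 in shWTAP, most of it from KIT and MPO. The part of the 9 markers in the results below was not tested. Among markers of other cell types, CD3E, KRT19, COL1A1 and COL1A2 stayed under 1 FPKM in the mean of both groups, while CD3D was at 50.2 and EPCAM at 41.5 FPKM in control. MS4A1 and HBB were not analysed here. In bulk RNA, fewer cells with a transcript and less of it per cell cannot be told apart.

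In control cells the cytosolic genes were mostly more abundant than the mitochondrial ones. Per kilobase, their control means had a median of 33.4 FPKM, from 3.98 for HARS1 (histidine) to 151.8 for TARS1 (threonine), against a median of 5.77 FPKM for the mitochondrial genes, from 1.49 for FARS2 (phenylalanine) to 26.8 for IARS2 (isoleucine). The median over all tested genes was 5.89 FPKM. TARS1 was at 148.7, 144.6 and 162.0 FPKM in the control libraries, above every other gene of the group in each of them. It was followed by IARS1 (isoleucine) at 86.3 ± 2.75 FPKM, EPRS1, a fused enzyme for glutamate and proline, at 75.6 ± 2.67, and FARSA, a subunit of the phenylalanine enzyme, at 68.1 ± 1.83 (SD, n = 3 each). These 4 did not overlap with their neighbours in the order. Further down, 9 of the 21 neighbouring cytosolic pairs overlapped in range, among them NARS1, MARS1 and KARS1 at 50.8 to 55.6 FPKM and SARS1, QARS1, AARS1 and YARS1 at 34.7 to 38.1 FPKM.

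On the mitochondrial side IARS2 was at 25.2, 25.8 and 29.4 FPKM in control, clear of the next gene, GATC, at 14.8 ± 0.649 FPKM. QRSL1, the catalytic subunit of the amidotransferase, stood at 12.4 ± 0.313 FPKM and RARS2 (arginine) at 9.70 ± 0.798. Below these, the order was less firm, with 10 of 18 neighbouring mitochondrial pairs overlapping in range. Subunits of 1 enzyme were not at equal levels. The ratio of FARSA to its partner FARSB was 5.94 ± 0.308 in control and 5.18 ± 0.205 in shWTAP, and that of GATC to GATB was 8.51 ± 0.927 and 9.28 ± 1.31. The FARSA to FARSB ratio was lower in each shWTAP library than in any control library, and the GATC to GATB ratios overlapped.

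**Figure D1:**
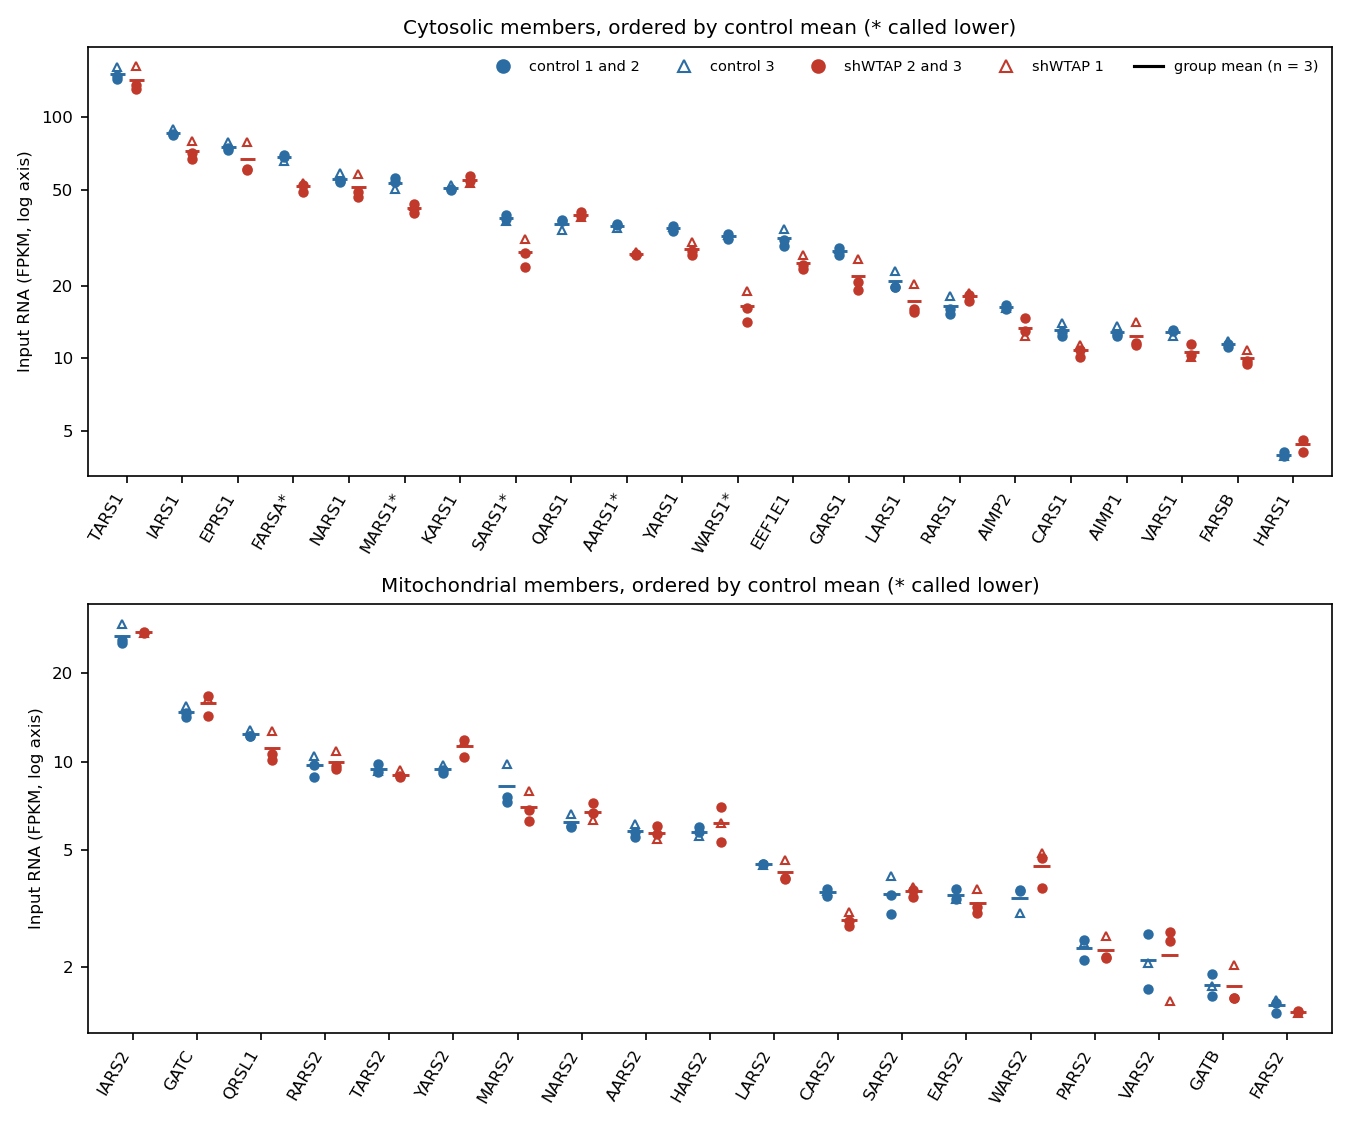
Input RNA level (FPKM, log axis) of the 22 cytosolic (top) and 19 mitochondrial (bottom) genes in each library; blue is control, red is shWTAP, bars are means of 3 libraries, open triangles mark the 2 libraries with a high share of mitochondrial mRNA, and asterisks mark genes called lower. TARS1 leads at 151.8 FPKM in control, and WARS1 shows the widest gap between the groups.

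Knockdown of WTAP went with lower RNA for part of the cytosolic genes. Of the 22, WARS1 (tryptophan), AARS1 (alanine), FARSA, MARS1 (methionine) and SARS1 (serine) fell, which is 5 genes or 22.7%, against 2.42% of all tested genes. With a filter at 5 FPKM, the same 5 were called lower among 21 cytosolic genes tested, against 4.67% of all genes tested there. None of the 22 was called higher, and none of the 19 mitochondrial genes was called in either direction by limma. At an unadjusted p under 0.05, 13 cytosolic genes were lower and 0 higher, and 1 mitochondrial gene was lower and 2 higher, while 13.6% of all tested genes were lower and 9.87% higher by that measure. The median log2 change was -0.25 over the cytosolic genes, -0.01 over the mitochondrial genes and -0.03 over all tested genes. In 13 of 22 cytosolic genes (59.1%) each shWTAP library was below each control library, a pattern found in 16.2% of all tested genes. In 2 cytosolic genes, KARS1 and QARS1, each shWTAP library was above each control library, against 12.1% of all tested genes. Among the mitochondrial genes the counts were 1 lower (CARS2) and 2 higher (WARS2 and YARS2).

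WARS1, on chromosome 14 (positions 100333790 to 100376805, minus strand, in the coordinates of the deposited table, whose build is not given in the sources used here), changed by far the most. Tryptophanyl-tRNA synthetase, its product, is also known as an enzyme induced by interferon gamma. It measured 32.7, 31.2 and 32.4 FPKM in the control libraries and 19.0, 16.2 and 14.2 in the shWTAP libraries. The groups did not overlap, and the shWTAP mean was 51.2% of control, and it changed by -0.93 on the log2 scale (SE 0.10, adjusted p = 0.00687 by limma). Within the 2 libraries of high mitochondrial mRNA alone its log2 difference was -0.74, and among the other 4 it was -1.03.

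SARS1 was at 37.8, 39.2 and 37.2 FPKM in control and 31.3, 27.2 and 23.8 in shWTAP, with shWTAP library 1 the nearest to control. Its log2 change was -0.47 (SE 0.10, adjusted p = 0.0498), next to the threshold. FARSA, the catalytic alpha subunit, measured 68.4, 69.7 and 66.1 FPKM in control and 53.5, 52.2 and 49.1 in shWTAP. It changed by -0.39 on the log2 scale (SE 0.06, adjusted p = 0.0221), while its partner FARSB, at 11.5 ± 0.345 against 9.98 ± 0.703 FPKM, did not pass (adjusted p = 0.172). The most even gap was that of AARS1, at 36.0, 35.7 and 34.7 FPKM in control and 27.5, 27.1 and 26.9 in shWTAP. Its change was -0.37 (SE 0.06, adjusted p = 0.0191). MARS1, the only called gene among the synthetases of the complex, was at 55.7, 53.6 and 50.4 FPKM in control and 42.8, 43.5 and 40.0 in shWTAP. The log2 change was -0.33 (SE 0.07, adjusted p = 0.0454). MARS1 shares 13370 bp with ARHGAP9 (11.5 FPKM in control, 10.9 in shWTAP) and 982 bp with DDIT3 (19.4 and 16.4 FPKM), both on the opposite strand, and the part of those reads in the value was not tested. All 5 called genes kept the groups apart in every library, the same libraries that gave the calls, so this adds no separate support.

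These calls rest on few libraries. Without control library 1, limma called 0 of the 41 genes and 38 genes in all. WARS1 was the only gene of the group called when control library 2, control library 3, shWTAP library 2 or shWTAP library 3 was left out. Without shWTAP library 1 instead, 17 of the 41 were called lower, 15 cytosolic plus CARS2 and QRSL1, and 0 higher, with 15.4% of all tested genes lower and 8.95% higher. With both libraries of high mitochondrial mRNA left out, 17 were lower (15 cytosolic, CARS2 and QRSL1) and KARS1 was higher, against 16.4% and 11.9% of all tested genes. A block that sets these 2 libraries against the other 4 gave 15 lower and 1 higher (YARS2), against 10.7% and 6.36%. With both left out the cytosolic median log2 change was -0.26, and it ranged from -0.30 to -0.22 when 1 library was left out in turn. shWTAP library 1 had the highest shWTAP value in 16 of the 22 cytosolic genes and in 11 of the 19 mitochondrial genes. Its summed FPKM over the cytosolic genes was 829.5, against 747.1 and 715.6 in shWTAP libraries 2 and 3 and 871.2 to 906.1 in control. The sum over mitochondrial genes was 131.4 to 141.8 FPKM in control and 133.5 to 141.6 in shWTAP. In shWTAP the cytosolic sum was 86.3% of control, the mitochondrial sum 101.2% and the sum over all tested genes 98.6%.

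Several genes next to the threshold were lower in each shWTAP library without passing. YARS1 (tyrosine) stood at 34.7 ± 0.943 FPKM in control and 28.3 ± 1.80 in shWTAP (adjusted p = 0.0625), the closest of those not called. EEF1E1, a complex scaffold that is also known as p18, was at 31.5 ± 2.54 and 24.9 ± 1.80 FPKM (adjusted p = 0.0729). VARS1 (valine) and AIMP2, a scaffold of the complex, followed with adjusted p of 0.0897 and 0.0899. The mitochondrial CARS2 (cysteine) came next, at 3.61 ± 0.0989 FPKM in control and 2.90 ± 0.163 in shWTAP (adjusted p = 0.0965), then CARS1, the cytosolic enzyme for cysteine, at 0.0995. GARS1 (glycine), whose gene makes both a cytosolic and a mitochondrial form, was at 28.6, 26.7 and 28.4 FPKM in control and 25.7, 20.7 and 19.1 in shWTAP (adjusted p = 0.111).

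The 4 largest differences upward did not pass the test. WARS2, the mitochondrial enzyme for tryptophan, was at 3.66, 3.63 and 3.05 FPKM in control and 4.88, 3.71 and 4.70 in shWTAP. Its log2 change was 0.28 (SE 0.11, adjusted p = 0.169), with the control library of high mitochondrial mRNA the lowest of all. YARS2, its counterpart for tyrosine, was at 9.14, 9.34 and 9.74 FPKM in control and 11.6, 11.8 and 10.4 in shWTAP (adjusted p = 0.113). RARS1 (arginine) stood at 16.4 ± 1.49 and 18.1 ± 0.720 FPKM with overlap, and QARS1 (glutamine) at 36.2 ± 1.84 and 39.3 ± 0.978 without. The levels of KARS1, the lysine enzyme of cytosol and mitochondria, were 50.8 ± 1.25 and 54.7 ± 1.86 FPKM, also without overlap.

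By role, the 7 synthetases of the multisynthetase complex split in sign. MARS1, LARS1 (leucine), IARS1 and EPRS1 had log2 changes of -0.33, -0.26, -0.25 and -0.19, and KARS1, QARS1 and RARS1 had 0.10, 0.12 and 0.13. MARS1 alone of these passed, and the median was -0.19. Of the 3 scaffolds none was called, with a median of -0.27, and AIMP1, at 12.9 ± 0.646 and 12.3 ± 1.5 FPKM, overlapped between the groups. The ratio of EEF1E1 to AIMP1 was 2.45 ± 0.106 in control and 2.03 ± 0.0997 in shWTAP, lower in each shWTAP library. Among the 12 cytosolic synthetase genes outside the complex, 11 had a negative change and 4 were called, with a median of -0.27. HARS1 was the exception in sign, at 3.98 ± 0.10 FPKM in control and 4.40 ± 0.275 in shWTAP. The median of the 16 mitochondrial synthetases was 0.01. The amidotransferase subunits GATB, GATC and QRSL1 had changes of -0.01, 0.09 and -0.15, and all 3 overlapped between the groups. Split by the fold of the catalytic domain, with EPRS1 counted in class I, the cytosolic medians were -0.25 for 10 class I and -0.19 for 9 class II genes.

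**Figure D2:**
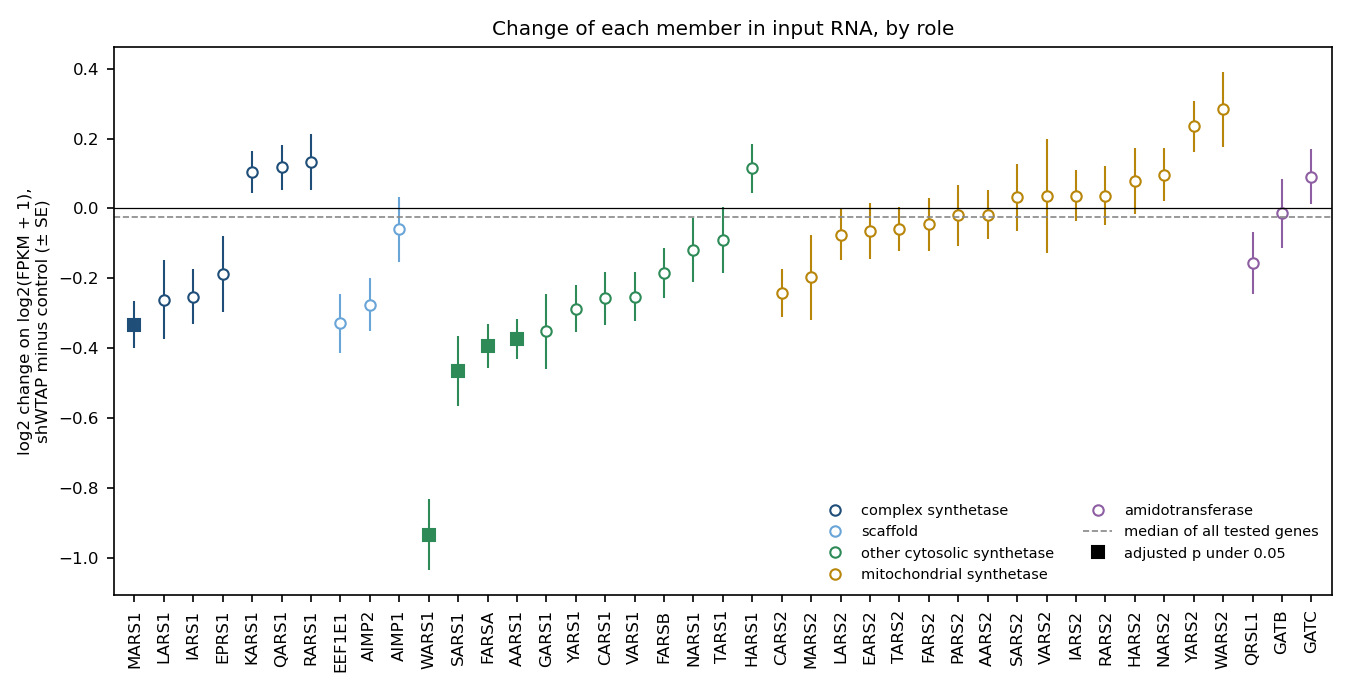
Log2 change on the log2(FPKM + 1) scale, shWTAP minus control, with its standard error, for the 41 genes grouped by role; filled squares passed an adjusted p under 0.05, and the dashed line is the median of all tested genes (-0.03). The 5 called genes are cytosolic and lie between -0.93 and -0.33, and most mitochondrial genes lie near 0.

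Setting each cytosolic enzyme against the mitochondrial enzyme for the same amino acid removes what both share within a library. The pairs are not all separate, since EPRS1 and FARS2 each enter 2 of them. Of the 17 such pairs, 16 had more cytosolic than mitochondrial RNA in control, with a median ratio of 6.60 and a highest ratio of 45.9 for FARSA over FARS2. The exception was HARS1 over HARS2 (histidine), at 0.690 ± 0.0108 in control and 0.717 ± 0.0587 in shWTAP. These 2 genes lie head to head on chromosome 5, on opposite strands and sharing 108 bp, so reads there could be split between them if counting ignored strand. In 7 pairs the ratio was lower in each shWTAP library than in any control library, and in 0 pairs was it higher in each. No such share over other gene pairs was computed, so the count stands without a background. With 3 libraries against 3, the exact 2-sided permutation test cannot go below p = 0.1, which these 7 pairs reached, so no pair could pass by itself.

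The tryptophan pair differed the most. WARS1 over WARS2 was 8.93, 8.61 and 10.6 in the control libraries and 3.89, 4.37 and 3.02 in the shWTAP libraries (log2 difference of the ratio -1.33, SE 0.18, exact p = 0.1). For tyrosine, YARS1 over YARS2 was 3.88, 3.60 and 3.58 in control and 2.61, 2.35 and 2.59 in shWTAP. The ratio for serine, SARS1 over SARS2, was 10.9 ± 1.91 and 7.55 ± 0.732, and that for alanine, AARS1 over AARS2, was 6.13 ± 0.445 and 4.76 ± 0.291. FARSA over FARS2, IARS1 over IARS2 and LARS1 over LARS2 made up the rest of the 7, the last by a narrow margin, 4.41 in the lowest control library and 4.40 in the highest shWTAP library. For cysteine both genes had lower means in shWTAP, and CARS1 over CARS2 was 3.62 ± 0.196 and 3.71 ± 0.0520. For threonine the ratio was 16.1 ± 1.30 and 15.8 ± 1.37.

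**Figure D3:**
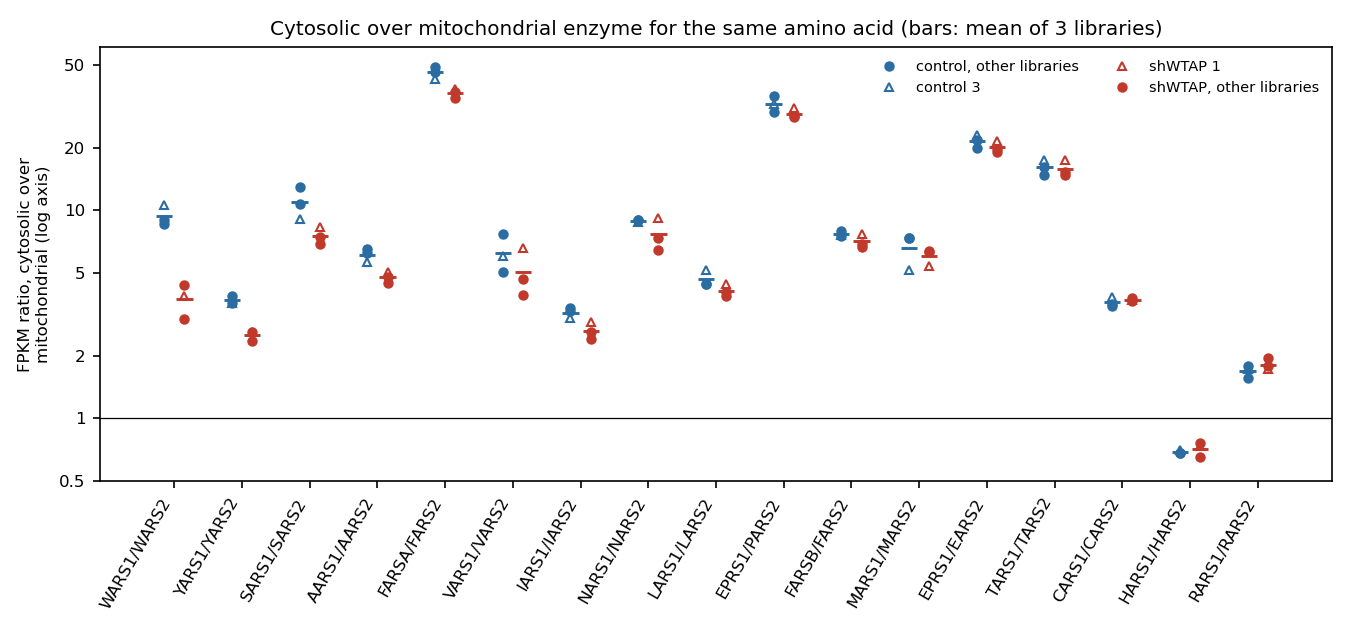
FPKM of the cytosolic enzyme divided by FPKM of the mitochondrial enzyme for the same amino acid (log axis) in each library, for 17 pairs ordered by the change; bars are means of 3 libraries and open triangles the 2 libraries with a high share of mitochondrial mRNA. WARS1 over WARS2 averaged 9.38 in control and 3.76 in shWTAP, and only HARS1 over HARS2 lies below 1.

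Promoter letters were read for the cytosolic genes because 13 of 22 were lower in each shWTAP library and because ATF4 is known to act on this family. RefSeq windows (GRCh38.p14, 250 bases before to 50 after each start) were matched for 36 of the 41 genes. The composite site that ATF4 binds with a C/EBP partner, searched as TGATGNAA on both strands, was in the windows of 8 of the 36: AARS1, CARS1, GARS1, IARS1, MARS1, NARS1, TARS1 and the mitochondrial YARS2. That is 7 of 19 cytosolic and 1 of 17 mitochondrial genes, while 4.46% of all genes with a window and 3.62% of all windows hold it. The fuller form TGATGCAA, which is contained in the first, was in 6 of the 36, all cytosolic, against 295 of all 27305 genes with a window. Of the 5 called genes, AARS1 and MARS1 hold the site, and SARS1, FARSA and WARS1 do not in these windows. Among the 11 matched cytosolic genes whose groups did not overlap downward, 5 hold TGATGNAA. The plain cAMP response element TGACGTCA was found for AIMP2 alone (2.25% of all genes with a window), and the E-box CACGTG for AIMP2, CARS2, EARS2, IARS1 and MARS2 (8.77%). Stretches with the composite site are shown on the strand of the gene, with the site in capitals, since its place and letters recur: within 13 bases of the annotated start in TARS1, CARS1, MARS1 and IARS1, and from base -187 in AARS1, counted from -1 just before the start.
AARS1: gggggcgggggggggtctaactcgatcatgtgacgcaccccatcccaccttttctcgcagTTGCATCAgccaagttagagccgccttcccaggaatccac
MARS1: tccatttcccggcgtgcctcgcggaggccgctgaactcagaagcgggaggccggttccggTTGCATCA
IARS1: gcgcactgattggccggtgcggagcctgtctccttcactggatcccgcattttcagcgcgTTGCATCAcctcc
CARS1: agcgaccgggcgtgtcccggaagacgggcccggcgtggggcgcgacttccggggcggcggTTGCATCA
TARS1: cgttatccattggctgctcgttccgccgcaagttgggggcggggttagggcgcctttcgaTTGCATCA
NARS1: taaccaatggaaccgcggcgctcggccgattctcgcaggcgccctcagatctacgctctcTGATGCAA
GARS1: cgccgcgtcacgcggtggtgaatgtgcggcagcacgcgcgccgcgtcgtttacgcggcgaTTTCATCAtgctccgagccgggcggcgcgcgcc

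These stretches lie at chr16:70289654-70289753 (minus strand) for AARS1, chr12:57488004-57488071 (plus) for MARS1, chr9:92293698-92293770 (minus) for IARS1, chr11:3057418-3057485 (minus) for CARS1, chr5:33440907-33440974 (plus) for TARS1, chr18:57621815-57621882 (minus) for NARS1 and chr7:30594785-30594877 (plus) for GARS1. NARS1 and TARS1 hold the site but overlapped between the groups, at 55.6 ± 2.47 against 51.3 ± 5.92 FPKM and 151.8 ± 9.10 against 143.0 ± 16.9 FPKM. WARS1, the gene that changed most, has 2 RefSeq windows and the composite site in neither. The window of its downstream start holds the core of the interferon-stimulated response element (GAAA repeated, with any 2 bases between), a motif added after its letters were seen. Searched on both strands, it is in 4.38% of all genes with a window and in 1 other gene of the group, EARS2. The 100 bases before that start (chr14:100375348-100375447, minus strand, GRCh38.p14) are shown because they carry this core, in capitals.
WARS1: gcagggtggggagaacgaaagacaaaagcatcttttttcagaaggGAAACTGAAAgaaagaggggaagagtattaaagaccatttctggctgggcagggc

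Around the synthetases, other genes of amino acid supply and translation were read from lists. Of 20 genes of amino acid supply and sensing, 19 were tested, 3 were lower (15.8%, against 2.42% of all tested genes), 0 were higher, and the median log2 change was -0.20. TRIB3, a pseudokinase that ATF4 induces, stood at 31.98 ± 1.22 FPKM in control and 18.4 ± 1.17 in shWTAP (log2 change -0.77, SE 0.07, adjusted p = 0.00518). ATF3, a stress-induced transcription factor, was at 3.13 ± 0.107 and 2.17 ± 0.0443 FPKM (adjusted p = 0.0313), and EIF2AK4, the kinase GCN2 that senses uncharged tRNA, at 5.56 ± 0.228 and 3.94 ± 0.402 (adjusted p = 0.0411). PHGDH, the first enzyme of serine synthesis, was at 27.7 ± 1.19 and 21.6 ± 1.56 FPKM and did not pass (adjusted p = 0.0507). ATF4 itself, at 184.9 ± 0.488 and 161.5 ± 15.4 FPKM, was lower in each shWTAP library without passing (adjusted p = 0.185). In 11 of the 19 (57.9%) the groups did not overlap and shWTAP was lower, against 16.2% of all tested genes.

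None of the 6 cytosolic elongation factors was called, nor was any at an unadjusted p under 0.05, and their median log2 change was 0.01. EEF1A1, which carries charged tRNA to the ribosome, was at 2515 ± 54.95 FPKM in control and 2476 ± 125 in shWTAP. Of the 5 genes of mitochondrial elongation and initiation, 0 were called, and 1 was lower and 1 higher at an unadjusted p under 0.05, where 13.6% and 9.87% of all tested genes stood. MTFMT, which formylates the methionine on the mitochondrial starter tRNA, was at 3.92 ± 0.463 FPKM in control and 5.42 ± 0.364 in shWTAP (adjusted p = 0.0592). Among 18 genes of tRNA processing, export and quality control, 17 were tested and 0 called, with 4 lower (23.5%) and 1 higher at an unadjusted p under 0.05, against the same 13.6% and 9.87%. TSEN54, a subunit of the tRNA splicing endonuclease, was at 7.85 ± 0.601 and 10.2 ± 0.393 FPKM (adjusted p = 0.0507), and SEPSECS, which makes selenocysteine on its tRNA, at 3.61 ± 0.469 and 2.52 ± 0.102 (adjusted p = 0.0599).

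The m6A readout was 1 peak list for control and 1 for shWTAP, with no replicate, so no difference between the lists was tested. The lists held 66 control and 59 shWTAP peaks of the 41 genes, with 33 genes in the control list and 33 in the shWTAP list. The 32 genes (78.0%) that stood in both lists all had peaks that overlapped by at least 1 bp, against 71.6% of all tested genes. Of the control peaks, 60 of 66 (90.9%, 95% Wilson interval 81.6% to 95.8%) were overlapped by a shWTAP peak, and 54 of 59 shWTAP peaks (91.5%, 81.6% to 96.3%) by a control peak. The intervals cover counting error only, and neighbouring peaks of a gene share its reads. No such share over all listed peaks was computed, so both peak shares stand without a background. EEF1E1 had 2 weak peaks in the control list alone (fold enrichment of IP over input 1.32 and 1.48, as the authors give it), and RARS1 1 weak peak in the shWTAP list alone (1.41). In the span of EEF1E1 the shWTAP list held 2 peaks assigned to BLOC1S5, of 4.2-fold and 1.66-fold, at other places than the control peaks.

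No peak of either list was assigned to AIMP2, GATC, HARS2, IARS2, QRSL1, RARS2 and VARS1. In 4 of these 7 both lists nonetheless held peaks. Those inside AIMP2, HARS2 and QRSL1 were given to overlapping genes, EIF2AK1 and SNORA80D in AIMP2, ZMAT2 in HARS2 and a ribosomal protein pseudogene in QRSL1. Those inside GATC were given partly to genes that overlap it (SRSF9 and RPL31P52) and partly to genes that do not (DYNLL1 and COX6A1). The peak inside HARS2 (chromosome 5, 140698021 to 140699305, 871 bases in its blocks) had a fold enrichment of 13.5 in control and 13.4 in shWTAP, at the same ends. IARS2, RARS2 and VARS1 had no peak of either list inside their span, although IARS2 was the most abundant of the mitochondrial genes. In TARS2 the assignment differed between the lists, since its 3′ UTR peak (7.66-fold in control) had a shWTAP counterpart at nearly the same place that was assigned to ECM1 (12.5-fold). Conversely, 9 control and 8 shWTAP peaks assigned to the group lay mostly outside the gene or were annotated to another one, such as 2 peaks given to MARS1 that lie in GLI1. The values that follow leave those out and take each gene's own peaks, a choice made after seeing the data.

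Listed enrichments were higher for the mitochondrial than for the cytosolic genes. The best own peak of a gene had a median fold enrichment of 9.48 over 14 mitochondrial genes and 4.37 over 19 cytosolic genes in the control list. In the shWTAP list these medians were 8.24 and 4.82. Taken over all own peaks, the control medians were 5.41 for mitochondrial and 3.135 for cytosolic genes, against 6.77 over the whole list. For shWTAP they were 7.78 and 2.8, against 6.75. The whole lists were not cut to own peaks, so these list medians are not a like measure. Over all peaks assigned to the genes, the control medians were 7.05 for mitochondrial and 3.76 for cytosolic genes. In the shWTAP list they were 7.955 and 4.21. MARS2 (methionine), at 8.24 ± 1.37 FPKM in control, had the highest, a 3′ UTR peak of 1619 bases with 51.7-fold enrichment in control and 42.3-fold in shWTAP. LARS2 (leucine) followed, with 24.4-fold and 21.9-fold in a 3′ UTR peak. FARS2 was at 18.0-fold and 16.4-fold, and PARS2 (proline) at 15.4-fold and 22.1-fold. Of the cytosolic genes, SARS1 had the highest in control (19.0-fold in an exon near its start, 22.8-fold in shWTAP), with AIMP1 (16.8-fold and 7.88-fold), WARS1 (13.5-fold and 18.3-fold) and CARS1 (12.9-fold and 24.4-fold) behind it.

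Levels moved with this difference, since the mitochondrial genes with an own peak had a median of 3.58 FPKM and the cytosolic genes 35.5 FPKM in control. Across the 33 genes with an own control peak, enrichment and FPKM on log2 scales had a Pearson r of -0.46 (Spearman rho -0.45), a description over genes of 1 list that share libraries. Within the 19 cytosolic genes r was -0.23 (rho -0.19), and within the 14 mitochondrial genes -0.02 (rho -0.16). The part of the level in the difference between the compartments was not tested further.

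**Figure D4:**
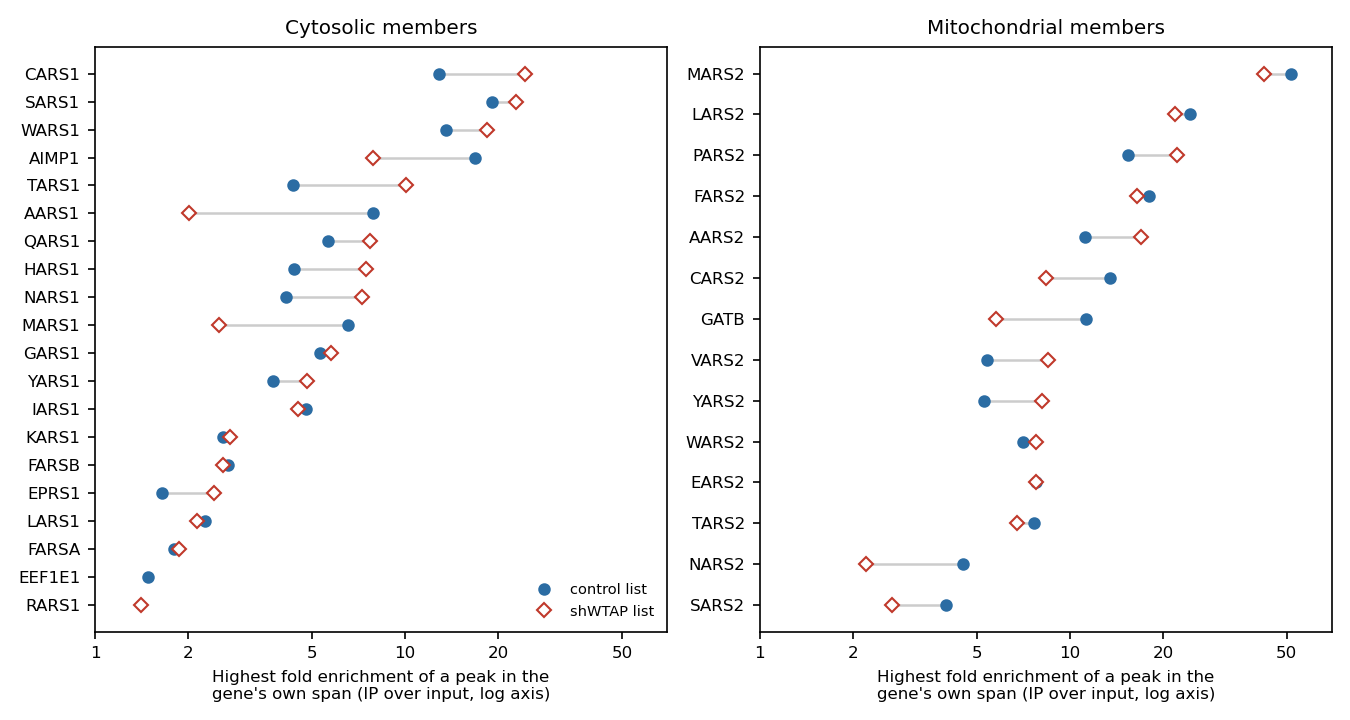
Highest fold enrichment (IP over input, log axis) among the own peaks of each gene, in the control list (filled circles) and the shWTAP list (open diamonds), for the 34 genes with such a peak; grey lines join the lists, and there is 1 list per condition. MARS2 leads in both lists at 51.7-fold and 42.3-fold, while FARSA, LARS1 and KARS1 stay under 3-fold.

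Own peaks are given by annotated site as counts, with no test. In the control list, those of cytosolic genes were annotated to the 5′ UTR in 18 cases, another exon in 5 and the 3′ UTR in 9. For mitochondrial genes these counts were 5, 7 and 12, with a VARS2 peak that is listed 2 times, in nearly identical bounds, counted once. The shWTAP list gave 16, 3 and 11 for the cytosolic and, counted the same way, 5, 5 and 10 for the mitochondrial genes. Thus the 5′ UTR took 56.2% of cytosolic and 20.8% of mitochondrial own peaks in control, and 18.9% of all 35341 peaks of that list. Where a gene had an own 3′ UTR peak, its best 3′ UTR enrichment had a median of 2.06 over 9 cytosolic and 7.76 over 11 mitochondrial genes in control, and 3.40 over 10 and 8.30 over 10 in shWTAP.

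Each of the 5 called genes had a peak in both lists. WARS1 had peaks annotated to the 5′ UTR of 4.51-fold and 13.5-fold in control and 12.5-fold and 18.3-fold in shWTAP. The stronger one, at chr14:100376295-100376805 in the control list, partly overlaps WDR25 on the opposite strand. It lies mostly upstream of both RefSeq starts of WARS1, if the builds match. A further peak assigned to WARS1, of 14.5-fold and 59.8-fold, shares bases with it and was left out as mostly outside the gene. SARS1 kept a 3′ UTR peak at the same ends (chr1:109237764-109238182), with 6.25-fold in control and 12.5-fold in shWTAP. FARSA had a weak 5′ UTR peak of 1.80-fold and 1.86-fold. In MARS1 a peak annotated to the 5′ UTR was 6.54-fold in control and 2.41-fold in shWTAP, and its 3′ UTR peak 2.06-fold and 2.51-fold. The former overlaps ARHGAP9 and the latter DDIT3, on the opposite strand, and which gene the reads came from was not tested. The former also ends upstream of the MARS1 promoter stretch shown above, if the builds match. AARS1 had a 5′ UTR peak of 2.29-fold and 2.01-fold, and an exon peak of 7.90-fold that the shWTAP list did not hold. Across the 32 genes with an own peak in both lists, the best enrichment was higher in shWTAP in 18 and lower in 14. That count was 12 and 6 over the cytosolic genes, 6 and 8 over the mitochondrial genes, and 3 and 2 over the 5 called genes. The best peaks of a gene could lie at different sites in the lists, as in AARS1 and TARS2 (lower) and YARS1 (higher). TARS2 counted as lower because its 12.5-fold shWTAP counterpart, assigned to ECM1, was left out. Taken peak by peak, 51 own control peaks had a shWTAP partner, whose enrichment was higher in 34 and lower in 17, with some partners shared by neighbouring peaks. Enrichments come from lists made separately, so these are counts of listed values and not a measured gain or loss of m6A.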

How the data were processed

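The expression table was deposited by the authors as FPKM per gene for the 6 input libraries. Not given in the sources used here were its program, genome build and annotation. fastp, HISAT2, HOMER and ChIPseeker appear in the submitters' processing notes without version or role. The peak lists, 1 per condition, were deposited by the authors with an IP over input ratio (fold enrichment), a p-value, and log10 scores of p and of the false discovery rate, per the file headers. Which caller was used, and whether replicates were pooled, was not stated in them. No IP value per gene and library was analysed here.

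Groups came from the sample titles, and all 41 genes were found by symbol. FPKM steps did not give whole reads, so no count test was run. With R 4.3.3 and limma 3.58.1, lmFit and a trended eBayes were run on log2(FPKM + 1), shWTAP minus control, for 11383 genes with at least 1 FPKM in at least 3 of 6 libraries. Changes on this scale understate those of low genes. The code of the fit was tried on simulated data with independent noise in each library. That trial held no libraries that stand apart, so it cannot vouch for the calls made here. Single values had the exact permutation test in scipy 1.17.1 (Python 3.11.15). Same-numbered libraries had deviations that correlated at -0.11, 0.17 and -0.14, and the main fit did not pair libraries by number. Deviations from means of 3 libraries cannot decide whether same-numbered ones were prepared together. An own peak has at least 50% of its bases inside the gene and names no other gene. Peaks overlapped from 1 bp, strand ignored, since the strand given is the assigned gene's. Whether reads were counted by strand was likewise not stated, and 15 of the 41 genes overlap another listed gene on their own strand. Promoters are RefSeq's (GRCh38.p14).

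The 41 genes, the gene lists and the tests were chosen with earlier results of these data known. Full values were given by rule for called genes, the 4 most abundant of each compartment and the 4 largest differences each way. From other lists, up to 4 genes with the smallest adjusted p could be named; EEF1A1, ATF4, DDIT3, ARHGAP9, BLOC1S5 and the markers were added after their values were seen. P-values measure the spread between libraries that the labels call biological replicates.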

Additional observations from a re-analysis of the deposited data

How the results depend on the processing

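The 5 lower calls depended on the setting. They became 4 with a pseudocount of 0.1, 3 without the trend, 1 with no filter on low values and 1 with the replicate block, where the whole table gave 395, 391, 82 and 77 called genes instead of 443. With 1 library left out in turn, the lower calls ranged from 0 to 17 and the calls over all genes from 35 to 2737. With both libraries of high mitochondrial mRNA left out there were 17 lower and 1 higher call among 3111 genes called, and with a 2-level block for these 2 libraries 15 lower and 1 higher (YARS2) among 1938. Quantile normalization gave 672 calls over all genes and median centring 662, with 5 and 6 lower calls. The median change stayed negative for the cytosolic genes under each alternative (-0.30 to -0.22). The mitochondrial median was within 0.05 of 0 throughout and changed sign, at 0.037 with a filter at 5 FPKM (10 of 19 genes tested) and 0.034 with both libraries left out. WARS1 passed in 14 of 16 alternatives (adjusted p 0.000679 to 0.0518), AARS1 in 10, FARSA in 9, SARS1 in 7 and MARS1 in 5 of 15. YARS1 gained a call in 5 of 16. No sign of a called gene turned. Without the genes that overlap on their strand, 4 of 26 were called lower. Genes with a peak in 1 list numbered 1 at a fold enrichment of at least 2 (EPRS1) and 3 at a false discovery rate of at most 0.01. The other peak counts and shares were the same within 1.5 times or within their intervals, also with own peaks only, which was added after seeing the data. With 3 libraries a group and depth unknown, no interval could be set on a single FPKM, and changes of low genes such as FARS2 and GATB are the least precise.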
